A study of Mus musculus with 6 samples.

Results

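The genes described here are the core of transforming growth factor beta (TGF-beta) signalling: the ligands Tgfb1, Tgfb2 and Tgfb3, the receptors Tgfbr1, Tgfbr2 and Tgfbr3, the signal transducers Smad2 and Smad3, the inhibitory Smad7, and the co-repressor Ski. They were chosen by name, with earlier results of these data known. All 10 were found, each on a line of its own, among the 24147 gene lines of the deposited tables. RNA was sequenced from the lens capsule with its attached lens epithelial cells, taken from wild type C57BL/6 mice that were 2 months old. The lens fiber cells had been removed from the living eye through a cut in the cornea, a mouse model of cataract surgery. The capsule was collected immediately after the operation (0 h, 3 libraries) or 24 h after it (24 h, 3 libraries). The 0 h libraries are the control used here, and their tissue had been through the operation too. The series calls the libraries biological triplicates (number of animals or eyes behind each: not given in the sources used here).

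TGF-beta ligands are secreted in a latent complex, in which a propeptide holds the mature ligand and a latent TGF-beta binding protein ties it to the matrix. Integrins with an alpha V chain, thrombospondin and proteases can free it. The freed ligand binds the type II receptor (Tgfbr2), which phosphorylates the type I receptor (Tgfbr1), and that kinase phosphorylates SMAD2 and SMAD3, which join SMAD4 and enter the nucleus. In the lens, TGF-beta is known as a factor that can turn epithelial cells into contractile, matrix-making cells, a change seen in the clouding of the capsule after cataract surgery.

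The libraries held 8069314 to 10862573 counts over genes. In 24 h replicate 1 the ribosomal RNA precursor Rn45s took 15.4% of the counts, against 2.44% to 5.04% in the other libraries. Markers of the labelled tissue were high at both times, led by the alpha-crystallin gene Cryaa at 88070.5 CPM at 0 h and 46169.6 CPM at 24 h (counts scaled for library size and composition). Of 8 lens epithelium markers 5 were lower at 24 h (summed 85170.0 to 144535 CPM at 0 h, 52723 to 66164 CPM at 24 h), as were 8 of 8 lens fiber markers (11468 to 20294 and 4547 to 4966 CPM). The lens epithelium sums were mostly Cryaa, which was not itself among the 5 (edgeR adjusted p = 0.0746). Pax6 (adjusted p = 0.0946) and Cdh1 (log2 fold change -0.07, adjusted p = 0.833) were not among them either. In bulk RNA, fewer cells of a type and less RNA per cell cannot be told apart. Of 7 fibroblast or keratocyte markers 4 were tested, with Col6a3 higher, Aldh3a1 lower and Kera at 0, and the sums, with Ptgds the most abundant, were 2270.3 to 2755 and 1541 to 2864 CPM. Lymphocyte markers summed to at most 1.17 CPM in any library with Cd3g at 0. Red cell markers summed to at most 8.82 CPM, with Hba-a1, Hba-a2 and Hbb-bt at 0 and Alas2 higher, which passed the low-count filter only through the 24 h libraries.

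Of the 10 genes, 5 were higher at 24 h and 0 were lower. The 5 were the ligands Tgfb1 and Tgfb2, the type II receptor Tgfbr2, and Smad3 and Smad7, and their rises were from 1.81-fold to 2.44-fold. Tgfb3, Tgfbr1, Tgfbr3, Smad2 and Ski were not called. The test was edgeR's quasi-likelihood test over 13956 genes, and a gene was called at a Benjamini-Hochberg adjusted p under 0.05. Over all genes tested 28.2% were called, 15.2% as higher and 13% as lower. The same 5 genes, and no others of the 10, had 24 h libraries that were all above the 0 h libraries, where 44.7% of all genes tested had groups that did not overlap, 22.9% with the 24 h libraries above. At an unadjusted p under 0.05 edgeR, DESeq2 and limma-voom each had 5 of the 10 genes higher and 0 lower. The median log2 fold change was 0.62 over the 10 genes and -0.03 over all genes tested. All 10 passed the low-count filter, none of them only through the 24 h libraries, and the counts of a gene in a library were between 86 and 9521.

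**Figure D1:**
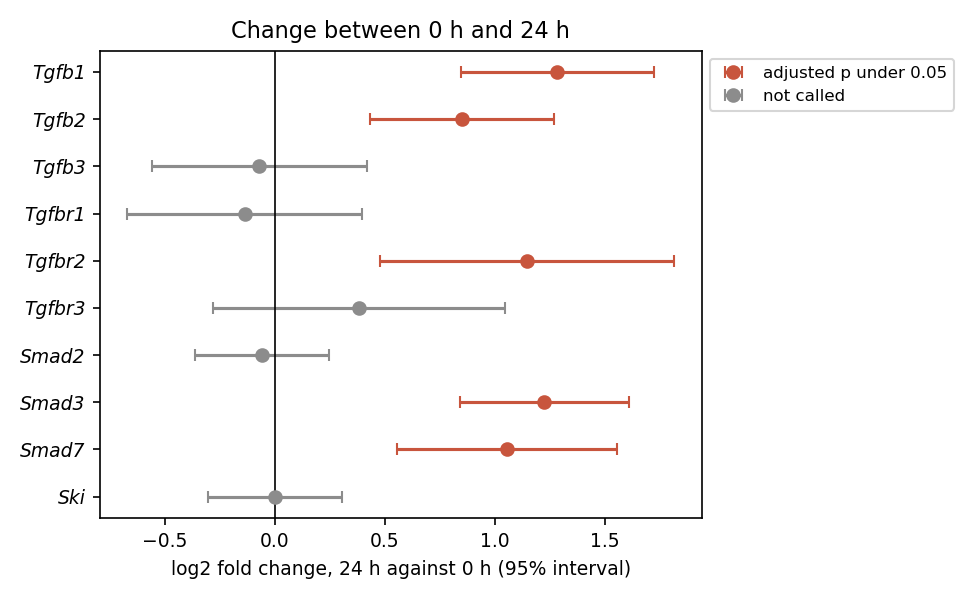
Log2 fold change of each of the 10 genes between 24 h and 0 h (x axis), with its 95% interval from edgeR's quasi-likelihood fit on 3 libraries at each time. The 5 genes in red were called higher, and the intervals of the 5 in grey include 0.

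The promoters of the rising genes are shown because these genes rose together, so that their sequences can be set side by side. RefSeq promoter windows on GRCm38.p6, each with 250 bases before the start site and 50 after it, were in the table used here for 6 of the 10 genes, in 7 windows. The 250 upstream bases are printed 5′ to 3′ on the gene's own strand for the 4 called genes among them. They lie at chr7:25686752-25687001 on the plus strand (Tgfb1), chr1:186705990-186706239 on the minus strand (Tgfb2), chr9:116175364-116175613 on the minus strand (Tgfbr2) and chr9:63757995-63758244 on the minus strand (Smad3). Capitals mark every match on either strand to TGANTCA (AP-1), CAGAC (the SMAD box), GGGCGG (SP1), TATAAA (the TATA box) or CCAAT.
Tgfb1: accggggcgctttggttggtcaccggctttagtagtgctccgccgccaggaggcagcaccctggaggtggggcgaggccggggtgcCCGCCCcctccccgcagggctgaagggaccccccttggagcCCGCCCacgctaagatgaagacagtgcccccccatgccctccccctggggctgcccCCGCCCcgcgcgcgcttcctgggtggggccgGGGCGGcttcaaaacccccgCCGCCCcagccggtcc
Tgfb2: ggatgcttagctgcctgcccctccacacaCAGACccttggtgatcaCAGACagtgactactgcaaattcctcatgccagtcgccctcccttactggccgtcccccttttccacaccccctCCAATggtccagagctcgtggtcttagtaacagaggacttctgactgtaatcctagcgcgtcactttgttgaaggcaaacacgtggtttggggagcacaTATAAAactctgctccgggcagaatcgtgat
Tgfbr2: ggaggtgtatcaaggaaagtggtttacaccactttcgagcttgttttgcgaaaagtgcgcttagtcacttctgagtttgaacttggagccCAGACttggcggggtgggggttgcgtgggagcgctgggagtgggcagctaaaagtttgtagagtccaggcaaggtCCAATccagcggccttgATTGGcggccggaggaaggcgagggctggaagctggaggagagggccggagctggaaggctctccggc
Smad3: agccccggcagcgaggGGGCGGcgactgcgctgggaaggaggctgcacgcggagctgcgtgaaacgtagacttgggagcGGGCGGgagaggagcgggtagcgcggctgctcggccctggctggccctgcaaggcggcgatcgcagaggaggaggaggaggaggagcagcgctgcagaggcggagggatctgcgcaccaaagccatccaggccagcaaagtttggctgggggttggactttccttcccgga

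None of the 5 motifs was in all 4 printed promoters. Tgfb1 had 6 matches to GGGCGG, of which 5 lie in the printed bases, and Smad3 had 2. Tgfb2 had none of these, and instead held a TATAAA that begins 31 bases before the start site, a CCAAT at 130 bases and a pair of CAGAC matches at 221 and 204 bases before it. Tgfbr2 had CAGAC at 160 bases and CCAAT at 85 and 68 bases before the start site. GGGCGG also stood in the promoters of Ski, with 6 matches, and of Tgfbr1, with 2. Tgfbr1 had windows at 2 start sites, with CCAAT in both and CAGAC in the one further into the gene. Neither Ski nor Tgfbr1 was called. TGANTCA was in 0 of the 7 windows, CAGAC in 3, GGGCGG in 4, TATAAA in 1 and CCAAT in 4, and 0 of the matches overlapped another. Over all 32851 windows of this length in the table, 7.81% held TGANTCA, 49.6% CAGAC, 35.7% GGGCGG, 13.6% TATAAA and 37.4% CCAAT. A match is a description of the letters and not a binding site.

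Levels between genes were compared per length, in RPKM (reads per kilobase of the gene's length, scaled to the library's counted reads). Tgfb2 was the highest of the 10 genes and Tgfb1 the next in 6 of 6 libraries. At 0 h the order of mean RPKM was Tgfb2 at 102 ± 12.2 (SD, n = 3), Tgfb1 at 32.2 ± 4.39, Tgfbr3 at 21.1 ± 4.25, Smad3 at 18.7 ± 0.676, Ski at 16.9 ± 0.55, Tgfbr1 at 14.7 ± 3.24, Smad2 at 8.18 ± 0.541, Tgfb3 at 7.43 ± 0.565, Smad7 at 4.24 ± 0.166 and Tgfbr2 at 2.78 ± 1.01. The ranges of the libraries overlapped between the neighbours Tgfbr3 and Smad3, Ski and Tgfbr1, and Smad2 and Tgfb3, and the other neighbours were separate. At 24 h Tgfb2 stood at 196 ± 35.9 RPKM, Tgfb1 at 84.3 ± 19.0 and Smad3 at 46.8 ± 11.7. From Ski at 17.8 ± 1.07 RPKM down through Tgfbr1 at 14.0 ± 4.10, Smad7 at 9.45 ± 3.41, Smad2 at 8.30 ± 0.212, Tgfb3 at 7.48 ± 1.66 and Tgfbr2 at 6.42 ± 1.23, every pair of neighbours overlapped. So did Smad3 and Tgfbr3, the latter at 28.9 ± 9.47 RPKM. The high share of Rn45s in 24 h replicate 1 lowers every RPKM in that library but not the order of genes within it.

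**Figure D2:**
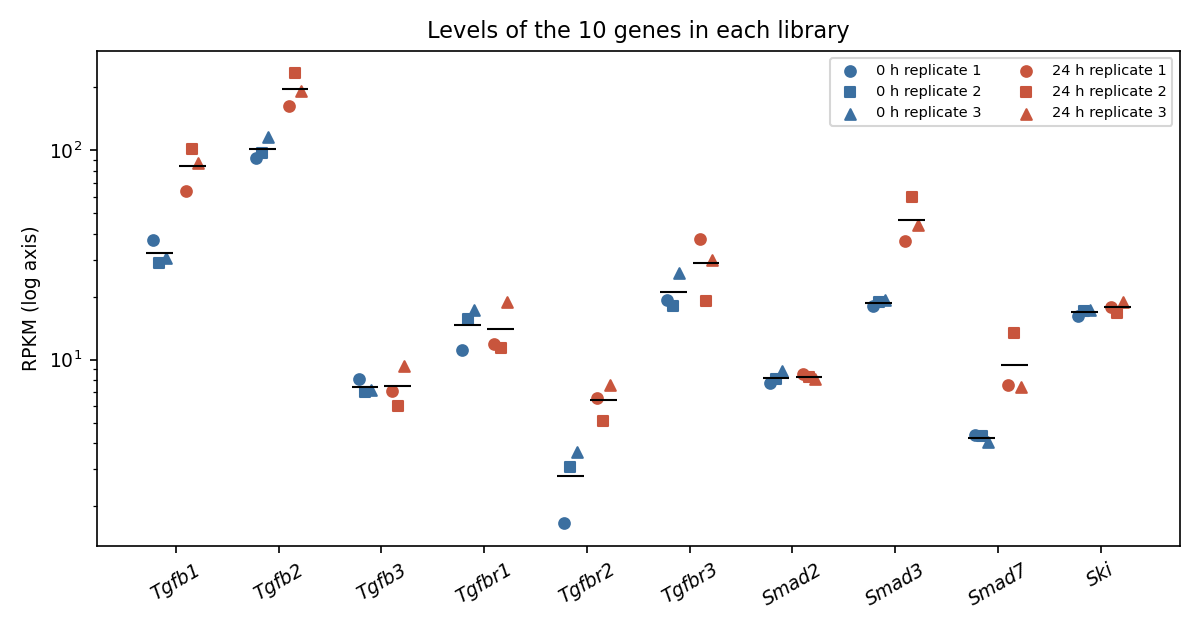
RPKM of the 10 genes (y axis, log scale) in each of the 3 libraries at 0 h (blue) and 24 h (red), with black lines at the means. Tgfb2 is the highest gene and Tgfb1 the next in every library, and the red points lie above the blue ones without overlap for Tgfb1, Tgfb2, Tgfbr2, Smad3 and Smad7.

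Changes between times are given in CPM, here counts scaled by the trimmed mean of M values (TMM), which puts libraries but not genes on a common scale. Tgfb1 encodes the ligand that platelets, leukocytes and many wounded tissues make (chromosome 7, 25687002 to 25704996 on mm10). It had 84.8, 57.0 and 68.2 CPM in 0 h replicates 1, 2 and 3, and 139, 195 and 178 CPM in 24 h replicates 1, 2 and 3. The lowest 24 h library stood well above the highest 0 h library. The rise was 2.44-fold, a log2 fold change of 1.29 ± 0.19 (SE) with a 95% interval of 0.85 to 1.73 (adjusted p = 0.0018). The call held under the 14 alternatives tried, with log2 fold changes from 1.15 to 1.48. Platelets and leukocytes were followed by their markers. Of 7 neutrophil markers 5 were tested and 5 were higher, of which Itgam, S100a8 and S100a9 passed the low-count filter only through the 24 h libraries, with sums of 5.81 to 16.4 CPM at 0 h and 92.0 to 179 CPM at 24 h and Elane at 0. Of 6 platelet or megakaryocyte markers 4 were tested and 2 were higher (Itga2b and Ppbp, both past the filter only through the 24 h libraries) and 0 lower, with sums of 3.41 to 9.62 and 12.5 to 21.0 CPM. Gp1ba was not called, though its 24 h libraries all lay below the 0 h libraries (log2 fold change -1.47, adjusted p = 0.108). Nor was Pf4 called (log2 fold change 0.35, adjusted p = 0.769). Of 9 monocyte or macrophage markers 1 was higher (Cd68) and 3 lower (Csf1r, Cx3cr1 and Mrc1), and the sums overlapped at 70.0 to 159 and 73.5 to 154 CPM. The part of these cells in the Tgfb1 value was not tested.

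Tgfb2 encodes a ligand long studied in the eye, which needs betaglycan to bind the signalling receptors well (chromosome 1, 186623186 to 186705992). It had 476, 433 and 582 CPM in 0 h replicates 1, 2 and 3, and 792, 1011 and 888 CPM in 24 h replicates 1, 2 and 3. The groups did not overlap, and 24 h replicate 2 was highest, as for Tgfb1. The rise was 1.81-fold (log2 fold change 0.85 ± 0.18, 95% interval 0.43 to 1.27, adjusted p = 0.00953). Tgfb2 was not called when the change was tested against 1.5-fold (adjusted p = 0.161, and from 1.6e-05 to 0.161 over 14 alternatives).

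Tgfb3, the least abundant ligand (chromosome 12, 86056743 to 86079041), had 29.8, 22.4 and 25.9 CPM at 0 h and 24.8, 18.7 and 30.8 CPM at 24 h in replicates 1, 2 and 3. The groups overlapped, and the log2 fold change of -0.07 had an interval of -0.56 to 0.42 (adjusted p = 0.838). The upper bound lies below the log2 fold changes of Tgfb1 and Tgfb2, though differences between these genes were not tested. Tgfb2, Tgfb3 and Tgfbr3 overlap annotated transcripts on the opposite strand in GENCODE M21, among them the coding gene Ttll5 at Tgfb3 and a pseudogene at Tgfbr3. Their counts, and the levels and shares made from them, are therefore uncertain, since reads of the opposite strand may be among them (strand setting not given in the sources used here).

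The summed ligand level was 138, 133 and 153 RPKM in the 0 h replicates and 234, 342 and 289 RPKM in the 24 h replicates. Most of it was Tgfb2 at both times. RPKM is not corrected for library composition, so these sums do not measure the change between times. For Tgfb2 the log2 fold change was 0.95 with library totals only, against 0.85 with TMM. Tgfb2 made up 71.9% ± 4.25 (SD, n = 3) of the summed ligand RPKM at 0 h and 68.2% ± 1.49 at 24 h, and the libraries of the 2 times overlapped. The share of Tgfb1 was 22.9% ± 3.68 at 0 h and 29.1% ± 1.48 at 24 h, with each 24 h library above each 0 h library, though 0 h replicate 1 at 27.0% lay close to 24 h replicate 1 at 27.4%. The share of Tgfb3 was 5.27% ± 0.594 at 0 h and 2.68% ± 0.793 at 24 h, without overlap. These shares were not tested.

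**Figure D3:**
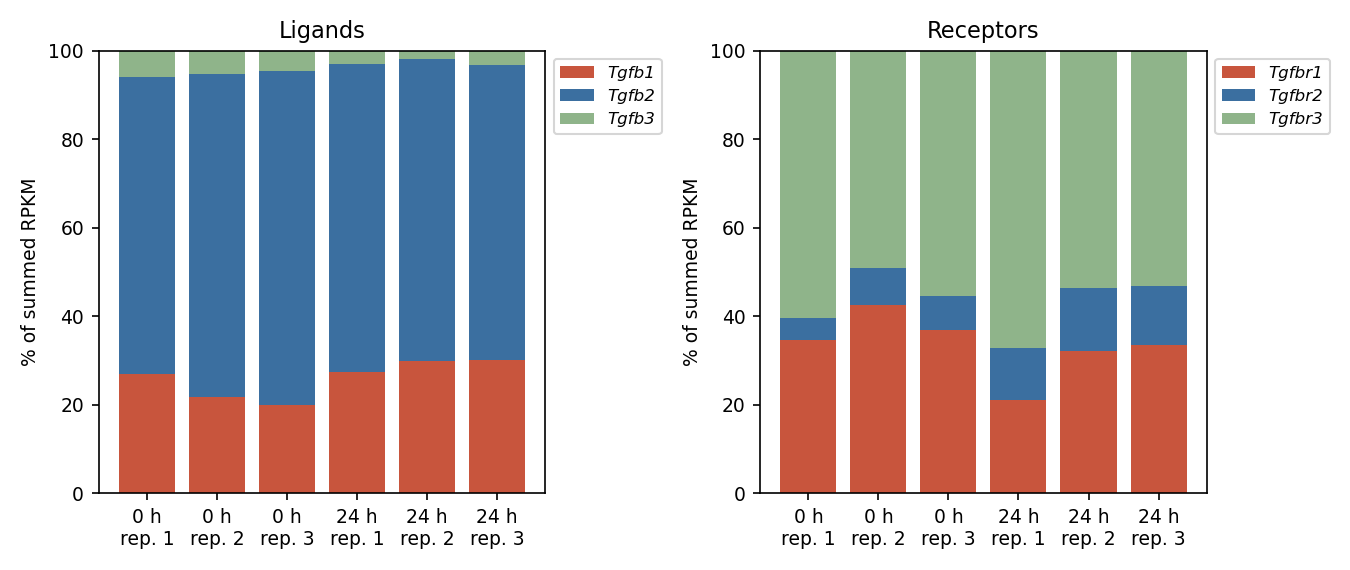
Shares of the summed RPKM (y axis, %) of the 3 ligands (left) and the 3 receptors (right) in each library. Tgfb2 is the largest ligand share in every library, and Tgfbr2 is the smallest receptor share in every library and larger at 24 h.

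Among the receptors, only the type II receptor was called. Tgfbr2 (chromosome 9, 116087695 to 116175363) had 8.62, 13.8 and 18.4 CPM in 0 h replicates 1, 2 and 3, and 32.5, 22.4 and 35.4 CPM in 24 h replicates 1, 2 and 3. The groups did not overlap, although 24 h replicate 2 lay near 0 h replicate 3. The rise was 2.21-fold (log2 fold change 1.15 ± 0.29, 95% interval 0.48 to 1.82, adjusted p = 0.0201). The call was lost without 0 h replicate 2 (adjusted p = 0.0573) and against a change of 1.5-fold (adjusted p = 0.104), and the 14 alternatives gave adjusted p from 0.0025 to 0.104.

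Tgfbr1, the type I receptor kinase (chromosome 4, 47353305 to 47414924), had 68.2, 83.4 and 105 CPM at 0 h and 69.8, 59.2 and 104 CPM at 24 h in replicates 1, 2 and 3. The groups overlapped over almost their whole range, and the log2 fold change of -0.14 had an interval of -0.67 to 0.40 (adjusted p = 0.709). Per length, Tgfbr1 stood at 6.69, 5.09 and 4.80 times the level of Tgfbr2 in the 0 h replicates and at 1.82, 2.23 and 2.48 times in the 24 h replicates. Tgfbr2 was the lowest of the 3 receptors in 6 of 6 libraries. Its share of the summed receptor RPKM was 7.07% ± 1.69 at 0 h and 13.2% ± 1.39 at 24 h, and the 2 times did not overlap. These ratios and shares were not tested.

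Tgfbr3 encodes betaglycan, a co-receptor with no kinase that presents ligand, TGF-beta2 above all (chromosome 5, 107106570 to 107289595). It had 127, 103 and 168 CPM at 0 h and 237, 105 and 176 CPM at 24 h in replicates 1, 2 and 3, and was not called (log2 fold change 0.38, 95% interval -0.28 to 1.05, adjusted p = 0.372). The 24 h libraries were spread widely, with replicate 1 at the top and replicate 2 within the 0 h range. Leaving out 24 h replicate 1 gave a log2 fold change of 0.13, and leaving out 24 h replicate 2 gave 0.64. Among the 24 h libraries, summed markers of ciliary or pigment epithelium were ordered in the same way, at 1234, 175 and 777 CPM in replicates 1, 2 and 3. At 0 h these sums were 255, 434 and 219 CPM in replicates 1, 2 and 3, the reverse of the order of Tgfbr3. In the 24 h libraries Dct, Tyrp1 and Pmel made up most of the sums. Not every marker had the order of the sums. Rlbp1, for one, had 37.3, 25.3 and 9.09 CPM in 24 h replicates 1, 2 and 3, and Otx2 had 26.6, 30.3 and 11.9 CPM. Of the 11 markers in that list, 3 were higher (Dct, Pmel and Mlana, the last past the filter only through the 24 h libraries) and 3 lower (Lrat, Rgr and Rpe65). Tgfbr2 was also lowest in 24 h replicate 2 among the 24 h libraries. Of 5 corneal epithelium markers found, 2 were higher (Krt5 and Krt12), though the groups overlapped for both. The sum over all 5 was 87.3, 10.7 and 87.2 CPM in 24 h replicates 1, 2 and 3 against 9.62 to 12.0 CPM at 0 h. Krt15, which was not called (adjusted p = 0.0744), made up 51.4 CPM of the sum in 24 h replicate 1. The part of these cell types in the receptor values was not tested.

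**Figure D4:**
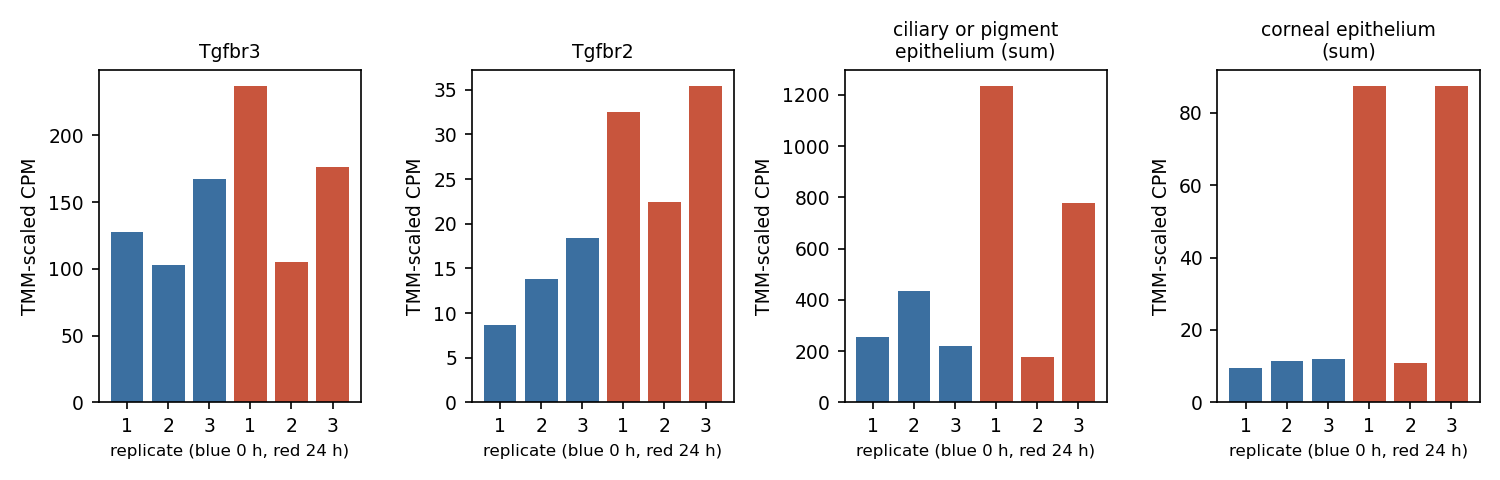
CPM of Tgfbr3 and Tgfbr2 and the summed CPM of ciliary or pigment epithelium and corneal epithelium markers (y axes) in replicates 1, 2 and 3 at 0 h (blue) and 24 h (red). In all 4 panels 24 h replicate 2 is the lowest of the 24 h libraries.

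Smad3, a receptor-activated transcription factor that binds DNA directly (chromosome 9, 63646767 to 63757994), had the lowest p of the 10 genes. It had 99.7, 90.0 and 105 CPM in 0 h replicates 1, 2 and 3, and 193, 278 and 219 CPM in 24 h replicates 1, 2 and 3. The 0 h libraries were close together and every 24 h library was far above them. The rise was 2.34-fold (log2 fold change 1.23 ± 0.17, 95% interval 0.84 to 1.61, adjusted p = 0.00121), and the call held under the 14 alternatives. Its partner Smad2, which the same receptor phosphorylates (chromosome 18, 76241701 to 76311747), had 76.9, 69.2 and 85.5 CPM at 0 h and 80.3, 69.5 and 72.3 CPM at 24 h in replicates 1, 2 and 3. Here the groups overlapped, and the log2 fold change was -0.06 with an interval of -0.37 to 0.24 (adjusted p = 0.776). Per length, Smad3 stood at 2.33, 2.33 and 2.20 times the level of Smad2 in the 0 h replicates and at 4.32, 7.18 and 5.43 times in the 24 h replicates, a ratio that does not depend on library scaling and was not tested.

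Smad7 blocks the type I receptor and is itself switched on by TGF-beta, which makes it a feedback inhibitor (chromosome 18, 75367365 to 75395934). It had 21.0, 18.04 and 19.2 CPM in 0 h replicates 1, 2 and 3, and 34.5, 54.4 and 32.2 CPM in 24 h replicates 1, 2 and 3. All 24 h libraries were above the 0 h libraries, with replicate 2 well above the other two. The rise was 2.08-fold (log2 fold change 1.06 ± 0.22, 95% interval 0.56 to 1.56, adjusted p = 0.00819), with a log2 fold change of 0.78 without 24 h replicate 2. Smad7 was not called against 1.5-fold (adjusted p = 0.0675, and from 0.000341 to 0.0675 over 14 alternatives). Per length, the ratio of Smad7 to Smad3 was 0.227 ± 0.0165 (SD, n = 3) at 0 h and 0.200 ± 0.0281 at 24 h, and the 2 times overlapped.

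Ski, a co-repressor that holds SMAD complexes inactive on DNA (chromosome 4, 155154075 to 155222535), had the smallest log2 fold change of the 10 genes, at 0.0017. It had 96.5, 88.3 and 100.2 CPM at 0 h and 101, 83.5 and 101 CPM at 24 h in replicates 1, 2 and 3. The groups overlapped, and the 95% interval of the log2 fold change was -0.30 to 0.31 (adjusted p = 0.994). Skil, its close relative and a known TGF-beta target, had means of 93.7 ± 11.4 and 95.5 ± 10.9 CPM at the respective times (log2 fold change 0.03, 95% interval -0.31 to 0.36, adjusted p = 0.906).

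The genes with the most similar profiles over the 6 libraries were found by the root mean square difference of log2 CPM after each gene's own mean was taken off. Nearest to Tgfb1 were Rras (0.0808) and 1110008P14Rik (0.0874), and nearest to Tgfb2 were Eef2k (0.0538) and Heatr2 (0.0737). Smad3 lay nearest to Trmt61a (0.0806) and to Acvr1 (0.0826), a type I receptor of the same superfamily. Smad7 lay nearest to Map3k14 (0.0888) and Prr13 (0.0901), and Tgfbr2 to Sqle (0.121) and Plekhf1 (0.131). The distances of Tgfbr2 were the largest, so its profile over libraries was the least closely matched of the 5. These distances are descriptions over 2 times and 6 libraries.

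Of 24 listed genes that store and free the ligand 23 were tested, and 9 were higher and 5 lower, where 15.2% and 13% of all genes tested were. The median log2 fold change was 0.43 against -0.03 over all genes. Ltbp1, a latent TGF-beta binding protein, rose 2.29-fold from 254 ± 22.5 to 583 ± 39.0 CPM (adjusted p = 0.000801), while its relative Ltbp3 fell 1.66-fold from 374 ± 48.4 to 226 ± 22.6 CPM (adjusted p = 0.01). The groups did not overlap for either gene. Thbs1, thrombospondin 1, rose 11.1-fold to 108, 151 and 364 CPM in the 24 h replicates (adjusted p = 0.000754), and its log2 fold change of 3.47 was 2.79 when 24 h replicate 3 was left out. Itgav, the alpha V integrin chain, rose 1.62-fold (adjusted p = 0.0166) and lost the call in the absence of 0 h replicate 2 (adjusted p = 0.0602) or of 24 h replicate 2 (adjusted p = 0.0513) and against 1.5-fold (adjusted p = 0.418). Itgb8, a beta chain that pairs with it to free ligand, stayed short of a call with means of 31.0 ± 5.18 and 27.5 ± 5.29 CPM (log2 fold change -0.17, 95% interval -0.61 to 0.27, adjusted p = 0.555).

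Plaur, the receptor for urokinase, had 0.501, 0.200 and 0.122 CPM at 0 h and 68.8, 131 and 52.8 CPM at 24 h. The fitted rise was 283-fold (95% interval of the log2 fold change 6.92 to 9.37, adjusted p = 4.56e-05), on 8 counts in all at 0 h, and the log2 fold change was 8.91 when 0 h replicate 1 was left out. Plau, urokinase itself, rose 24.4-fold (adjusted p = 5.71e-05) and the membrane protease Mmp14 rose 2.96-fold (adjusted p = 0.000497). In this list 4 genes passed the low-count filter only through the 24 h libraries. They were Plaur, Plau and Mmp9, all counted among the higher genes, and Lrrc32, which was not called. Furin, which cuts the TGF-beta propeptide and was picked after its values were seen, rose 2.40-fold from 122 ± 2.02 to 293 ± 38.6 CPM (adjusted p = 0.00055). The microfibril genes Fbn1 and Fbn2 fell 2.03-fold (adjusted p = 0.0459) and 2.18-fold (adjusted p = 0.0148). Fbn1 lost its call without any single library except 24 h replicate 3. It also lost it under other scalings (RLE size factors, and library totals only) and against 1.5-fold, and kept it in 6 of 14 alternatives. Fbn2 lost its call when 0 h replicate 3 was left out (adjusted p = 0.0617) and against 1.5-fold (adjusted p = 0.0877). The list's count of lower genes, 5, was 2 without 0 h replicate 1, 3 without 0 h replicate 2, 1 without 0 h replicate 3, 2 without 24 h replicate 1 and 2 without 24 h replicate 2.

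Of 37 other transducers and regulators listed, 36 were tested, 7 were higher and 6 lower, and the median log2 fold change was 0.01. These shares lie near the 15.2% higher and 13% lower over all genes tested. Smad4, the partner that Smad2 and Smad3 share, was likewise not called, with means of 69.1 ± 5.22 and 61.2 ± 6.40 CPM (log2 fold change -0.17, 95% interval -0.48 to 0.13, adjusted p = 0.375). Smad6, the inhibitory SMAD of the BMP branch, fell 2.09-fold (adjusted p = 0.0145), opposite in sign to Smad7. Its libraries read 20.6, 16.7 and 22.5 CPM at 0 h, all above the 12.8, 7.97 and 7.93 CPM at 24 h. The call for Smad6 ended when 0 h replicate 1 was removed (adjusted p = 0.0511), when 0 h replicate 3 was removed (adjusted p = 0.0631) and under the 1.5-fold threshold (adjusted p = 0.0975). Pmepa1, a TGF-beta-induced protein that keeps SMADs from the receptor, rose 4.95-fold (adjusted p = 0.000227), Smurf1, a ubiquitin ligase that SMAD7 brings to the receptor, rose 3.13-fold (adjusted p = 0.000182), and the SMAD co-repressor gene Tgif1 rose 3.49-fold (adjusted p = 0.000325).

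Bambi, a decoy receptor without a kinase, fell 3.35-fold from 28.3, 29.2 and 50.5 to 11.6, 5.84 and 14.7 CPM (adjusted p = 0.00772). Fmod, fibromodulin, a matrix proteoglycan that binds TGF-beta, fell 4.63-fold from 466, 618 and 635 to 164, 89.4 and 118 CPM (adjusted p = 0.000486). For both genes the 24 h libraries lay wholly below the 0 h libraries. The deubiquitinase gene Usp11 fell 1.69-fold (adjusted p = 0.00397), and Usp9x, the most abundant gene of the list, had 576 ± 58.5 and 470.3 ± 83.8 CPM (adjusted p = 0.273). Eng, endoglin, a co-receptor best known from endothelium, rose 8.03-fold from 1.81 ± 0.756 to 14.6 ± 7.53 CPM (adjusted p = 0.00242), and it passed the low-count filter only through the 24 h libraries. Of 8 markers of vascular endothelium 6 were tested and 2 were higher (Cdh5 and Pecam1, both past the filter only through the 24 h libraries) and 0 lower. Among those not called, Kdr, the most abundant of the list, had a log2 fold change of -1.09 (adjusted p = 0.145) and Vwf -0.11. Emcn and Tek, also not called, were at 1.70 and 0.81. The summed levels were 18.1 to 47.6 CPM at 0 h and 29.2 to 52.3 CPM at 24 h. The part of these cells in the value of Eng was not tested. The list's count of lower genes, 6, dropped to 3 when either 0 h replicate 1 or 0 h replicate 3 was left out.

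Of 38 listed genes that TGF-beta is known to control 36 were tested, and 22 were higher and 4 lower, against 15.2% and 13% over all genes tested. Their median log2 fold change was 2.01. Among the 22, Il11 passed the low-count filter only through the 24 h libraries. Col3a1 had 5.24, 0.425 and 45.1 CPM in 24 h replicates 1, 2 and 3, and its groups overlapped. It lost its call with limma-voom, without 24 h replicate 3 and under other alternatives. The list was written with results of these data known and its genes answer to many other signals, so the count describes these genes and does not measure TGF-beta activity. Tgfbi, a matrix protein named for its induction by TGF-beta, rose 35.2-fold from 15.6, 18.6 and 27.1 to 465, 659.5 and 1033 CPM (adjusted p = 6.16e-05). Ctgf, a matricellular protein, rose 3.21-fold from 149.6, 157 and 131 to 322, 624 and 462 CPM (adjusted p = 0.00141). For both genes every 24 h library was above every 0 h library.

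Among the other genes named from this list, Tnc, tenascin C, rose 6.44 on the log2 scale, Timp1, an inhibitor of matrix metalloproteinases, 5.64, Fn1, fibronectin, 4.21, Lox, a collagen cross-linker, 4.17, and Acta2, smooth muscle actin, 2.51, with adjusted p from 1.53e-05 to 0.000988. Of 6 pericyte or smooth muscle markers, 5 were tested and 1 was higher (Des, past the filter only through the 24 h libraries) and 1 lower (Pdgfrb). The sum over the 6 was 128 to 156 CPM at 0 h and 81.9 to 143 CPM at 24 h, and most of it was Pdgfrb in every library. Myh11 was not called (adjusted p = 0.264) and had 48.7, 1.91 and 40.4 CPM in 24 h replicates 1, 2 and 3. Among genes that fell, Vcan, the proteoglycan versican, fell 2.94-fold from 757 ± 308 to 258 ± 37.6 CPM (adjusted p = 0.0046). Id2, a dominant-negative factor known to be repressed by TGF-beta in epithelia, fell 1.80-fold (adjusted p = 0.00932). Col4a1, a capsule collagen chain and the most abundant gene of the list, fell 2.25-fold (adjusted p = 0.0335) but lost its call when any library other than 0 h replicate 2 or 24 h replicate 3 was left out, with adjusted p up to 0.146. The count of lower genes, 4, dropped to 2 when 0 h replicate 1, 0 h replicate 3 or 24 h replicate 2 was left out.

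**Figure D5:**
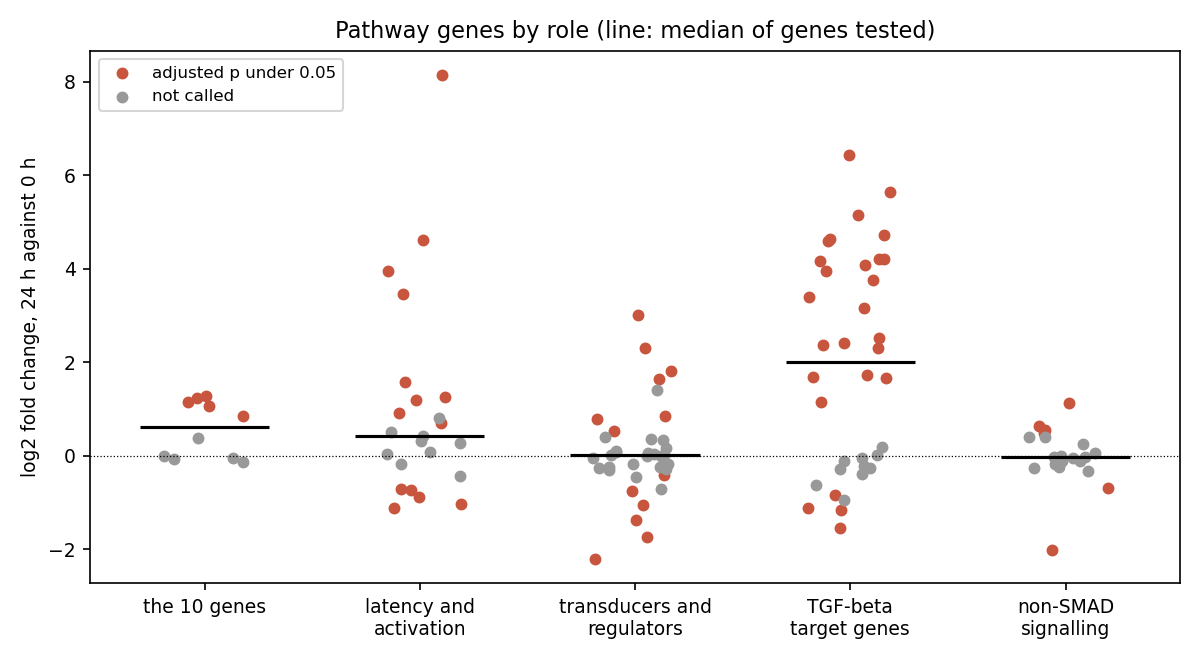
Log2 fold change between 24 h and 0 h (y axis) of every tested gene in the set of 10 and in 4 lists of pathway genes, with red points for called genes, grey points for the others and lines at the medians. The target genes lie mostly above 0 with a median of 2.01, and the median of transducers and regulators is 0.01.

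Kinases and GTPases that carry TGF-beta signals without SMADs numbered 20 tested genes, of which 4 were higher and 2 lower (median log2 fold change -0.03), again near the 15.2% and 13% over all genes tested. Map2k3 and Map2k6, kinases that both activate p38, differed in sign. Map2k3 went from 64.1, 50.2 and 64.8 to 119, 158 and 116 CPM (adjusted p = 0.00195), and Map2k6 from 16.4, 17.4 and 13.5 to 2.56, 4.14 and 4.97 CPM (adjusted p = 0.00161). Their groups did not overlap. Rock2, a kinase that promotes actomyosin contraction, rose 1.55-fold (adjusted p = 0.00702), Map2k4 rose 1.39-fold (adjusted p = 0.0202) and Mapk9, a JNK gene, fell 1.61-fold (adjusted p = 0.0115). Rhoa, the most abundant gene of the list, fell short of a call at 239 ± 30.1 and 317 ± 36.8 CPM (adjusted p = 0.0934), which scaling by library totals only gave it (adjusted p = 0.0482). The count of higher genes dropped to 2 when 0 h replicate 2, 0 h replicate 3 or 24 h replicate 3 was left out, and Map2k4 was then not called.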

How the data were processed

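Per the file headers, the authors deposited raw read counts and RPKM for every gene and library. Tools named in the submitters' processing notes are HTSeq 0.6.1p1, TopHat2 2.1.0, SAMtools 1.4, edgeR 3.16.5, bedtools 2.17, FastQC and Trim Galore 0.4.4, with build mm10 (annotation and strand setting: not given in the sources used here). The deposited RPKM equals count over length and summed counts in 6 of 6 libraries, so it is not corrected for composition. It was used for levels and for the sums, shares and ratios made from them, and for no test.

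Counts were filtered with filterByExpr, scaled by TMM and tested with edgeR 4.0.16 (glmQLFit and glmQLFTest, R 4.3.3, two-sided, no covariate) over all 13956 genes passing the filter, with Benjamini-Hochberg adjustment over them. The standard error is the log2 fold change over the square root of F, and intervals are 95%. Alternatives used DESeq2 1.42.0, limma-voom 3.58.1, other scalings and filters, a 1.5-fold threshold, a replicate block and leaving out each library. The code was tested on simulated data.

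The members, 4 pathway lists and the cell type lists were chosen with earlier results of these data known. From each pathway list the text names up to 3 higher and 2 lower genes with the lowest p, the most abundant gene and a fixed set, and others are said to be picked after seeing values. P-values measure the spread between 3 libraries a time. Protein sequences were not used here, and some genes under the naming rule and 1 cell type list are not reported here.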

Additional observations from a re-analysis of the deposited data

How the results depend on the processing

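Over 14 alternatives each for 48 genes, 623 of 672 values kept their direction and their side of the threshold, 34 lost the call, 1 gained it and 14 changed sign. Some of these genes were followed because of their low p in these data, which favours calls that hold. The 1.5-fold alternative is a stricter test on the log2 fold change of the main fit, so no direction could change under it. The count of kept values is therefore partly set by these choices. Tgfb1 and Smad3 were called in all 14. All sign changes were in genes that were not called, at values within 0.1 of 0 on the log2 scale. Leaving out a library gave log2 fold changes of -0.258 to 0.0987 for Tgfb3, -0.402 to 0.0587 for Tgfbr1, -0.137 to 0.0448 for Smad2, -0.0518 to 0.0903 for Ski and -0.0512 to 0.159 for Skil. Tgfb3 (0.0099) and Smad2 (0.0216) also changed sign with library totals only, and Ski with limma-voom (-0.0019) and the replicate block (-0.0018). The cause was not tested. Against a 1.5-fold change, 2 of the 10 genes were called higher (Tgfb1 and Smad3), 0 latency genes were lower, 4 regulators were higher and 2 lower, 1 target gene was lower, and 1 non-SMAD gene was higher and 1 lower. Leaving out a library gave 4 to 5 of the 10 genes higher, 1 to 5 latency genes lower, 3 to 5 regulators lower, 2 to 5 target genes lower and 2 to 5 non-SMAD genes higher. As shares of summed CPM, which favour long genes, Tgfb1 was 11.9% and 15.6% of the ligands at 0 h and 24 h, Tgfb2 83.7% and 82.1%, and Tgfb3 4.42% at 0 h. The labels do not say whether replicate numbers pair the libraries, and the values do not settle it. The deviations of same-numbered libraries correlated across genes at 0.0918, 0.224 and 0.412. For 24 h replicates 2 and 3 this was the best match, but 24 h replicate 1 correlated best with 0 h replicate 2 (0.179). The remaining pairs of unlike number were at -0.364 to -0.0202. With the replicate block 5 of the 10 genes were higher and 0 lower, 8 regulators were lower against 6, and 2315 genes were higher and 2174 lower in all, against 2125 and 1817. With 3 libraries a time, the genes not called are not shown to be unchanged.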

Other observations

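Transcription factors of epithelial-to-mesenchymal transition in the target list, picked after their values were seen, differed among themselves. Snai1 rose 4.91-fold to 7.47 ± 1.46 CPM (adjusted p = 0.0029) and Zeb1 rose 2.21-fold from 60.9 ± 8.47 to 135 ± 33.9 CPM (adjusted p = 0.00379). Zeb2 showed no call at 161 ± 11.8 and 162 ± 26.3 CPM (adjusted p = 0.984), nor did Snai2 at 1.69 ± 0.880 and 1.62 ± 0.502 CPM (adjusted p = 0.962). Twist1 did not pass the low-count filter, with means of 0.356 and 0.354 CPM. Cdh2, N-cadherin, was already at 544 ± 84.1 CPM at 0 h and stood at 456 ± 113 CPM at 24 h (adjusted p = 0.421).

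The SMADs of the BMP branch were also picked after their values were seen. Smad1 rose 1.80-fold from 15.0 ± 1.52 to 26.9 ± 3.13 CPM (adjusted p = 0.00826), a call lost against 1.5-fold. Smad9 fell 2.59-fold from 10.6 ± 1.73 to 4.12 ± 2.64 CPM (adjusted p = 0.044), a call lost against 1.5-fold and when any library other than 24 h replicate 1 was left out. Smad5 was not called, with means of 99.3 ± 3.95 and 88.1 ± 10.5 CPM (adjusted p = 0.377).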
